A study of Mus musculus with 7899 samples.

Results

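Serotonin is made from tryptophan in 2 enzymatic steps, loaded into secretory granules, sensed by surface receptors and broken down by monoamine oxidases, and 10 genes of this route were followed in single pancreatic β cells of pregnant, lactating and cultured conditions. They were taken by symbol: Tph1, Tph2, Ddc, Slc18a1, Slc18a2, Htr1d, Htr2b, Htr3a, Maoa and Maob, 10 of the 21767 genes in the fullest count tables. All 10 were present in 6 of the 7 deposited tables; the Stat3 table listed 9 of them and lacked Htr1d.

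RNA of 7897 single cells from female C57BL/6J mice was read with Smart-seq3xpress, a plate-based method that covers whole transcripts, after islets had been picked by hand, dissociated and sorted. Every cell is labelled a β cell. The reads of the cells of each labelled replicate were summed, which gave 100 libraries in 48 groups, of 21 to 160 cells and 13273435 to 181405413 reads each. Levels are given in CPM, the counts of a gene per 1000000 scaled reads of the summed library.

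The time course, on a standard diet, held early gestation (G3.5, G5.5 and G6.5), mid-gestation (G8.5, G10.5 and G12.5) and late gestation (G14.5, G16.5 and G18.5), each named by its gestation day, then days 2, 7 and 14 after delivery with suffix L (P2L, P7L, P14L) or NL (P2NL, P7NL, P14NL), and G0, gestation day 0. The labels leave L and NL unexplained, and they are taken here to mean lactating and not lactating. Knockout sets on the standard diet compared mice labelled Acss2 knockout or Stat3 knockout with wild types at G18.5, G14.5 and G0, and mice labelled p300 knockout with wild types at G14.5 and G0. Acss2 is an acetyl-CoA synthetase, Stat3 a transcription factor and p300, encoded by Ep300, a histone acetyltransferase. The labels used here give neither the allele nor a Cre driver. A high-fat diet (HFD) set held G14.5, P7NL and G0 mice, Acss2 knockouts and wild types at G14.5 and G0, and standard-diet (SD) Acss2 wild types at G14.5. In the culture sets, mouse islets were kept for 4 days in 20% human serum, either maternal (MS) or normal (NS), with 5 µM A485, an inhibitor of p300 and CBP, or 20 µM nifuroxazide (Nif), which is used as an inhibitor of STAT3 signalling, or with the DMSO vehicle (Ctrl). Cultured islets have lost their blood flow and nerves. Each group had 2 replicates, and G14.5, G18.5, P14L and HFD_G14.5 had 3. Whether a replicate is 1 mouse or a pool is not stated in the labels, so p-values measure the spread between these replicates.

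Tryptophan hydroxylase, encoded by Tph1 outside the brain and by Tph2 in serotonergic neurons, makes 5-hydroxytryptophan in the rate-limiting step, and aromatic amino acid decarboxylase, encoded by Ddc, turns it into serotonin. In mouse islets serotonin is known as a local signal of pregnancy: prolactin and placental lactogen switch on its synthesis, and Htr2b on β cells is known to promote their proliferation, Htr1d to restrain it late in gestation and Htr3a to ease insulin secretion. The vesicular monoamine transporters encoded by Slc18a1 and Slc18a2 load granules, and monoamine oxidases A and B degrade what is left in the cytoplasm.

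The libraries carried β-cell RNA throughout. Insulin reads made up 33.04 to 69.8% of each library, and no library lacked a read of Ins1, Ins2, Iapp, Slc2a2, Nkx6-1, Pdx1, G6pc2 or Slc30a8. Of the markers of cells that store or make serotonin elsewhere, the mast cell genes Cpa3 and Tpsb2 had no read in any of 100 libraries, Fcer1a none in 99 and Ms4a2 none in 97, and the platelet genes Pf4 none in 91 and Ppbp none in 98. Other genes of these lists had low levels, with medians of 1.77 CPM for Hdc, 0.694 CPM for Kit, 0.757 CPM for Itga2b and 0.213 CPM for Gp9, and no library lacked Hdc or Itga2b. Over the 7 mast cell markers the summed level was 1.67 to 5.15 CPM at G14.5 and 0.167 to 3.71 CPM at G0, and over the 4 platelet markers 0.238 to 1.55 CPM at G14.5 and 0.762 to 1.67 CPM at G0. Of 5 enterochromaffin markers, Lmx1a had no read in 91 libraries, while Chgb, a granule protein that β cells also make, ranged over 513 to 6818 CPM. Fev had no read in 7 of 88 libraries, with a median of 0.258 CPM and at most 2.539 CPM. Tac1 had none in 73 of 88 but reached 30.05 CPM, and Trpa1 had none in 66 of 100 and at most 1.668 CPM. Over these 5 markers the summed level, nearly all of it Chgb, was 3861 to 4056 CPM at G14.5 and 636 to 830 CPM at G0; its part in the results on the hydroxylases was not tested. In 21 cells over 5% of the reads came from other islet hormones, and leaving these cells out changed no call on the 10 genes. In the knockout sets the targeted gene had a lower mean but was still counted: at G14.5 Acss2 averaged 18.45 ± 0.827 CPM in knockouts and 31.98 ± 9.22 CPM in wild types, Stat3 70.5 ± 4.46 CPM in knockouts and 85.3 ± 6.99 CPM in wild types, and Ep300 20.0 ± 0.474 CPM in knockouts and 32.4 ± 6.87 CPM in wild types (SD, n = 2 each). These counts run over the whole gene and do not show whether the remaining transcripts carry the deletion.

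At G14.5 the 10 genes fell into very different levels once reads were divided by gene length. Ddc was the most abundant at 209 ± 9.30 CPM per kb, followed by Maob at 64.5 ± 7.05, Tph1 at 49.99 ± 7.49, Tph2 at 8.60 ± 1.34, Slc18a1 at 6.09 ± 1.20, Slc18a2 at 1.39 ± 0.571 and Maoa at 1.15 ± 0.303 CPM per kb (SD, n = 3). At G0 the hydroxylases stood lower in the order: Ddc was at 178 ± 5.16, Maob at 60.9 ± 1.23, Slc18a1 at 4.37 ± 1.65, Maoa at 1.51 ± 0.404, Slc18a2 at 0.757 ± 0.138, Tph1 at 0.339 ± 0.104 and Tph2 at 0.323 ± 0.217 CPM per kb (SD, n = 2). Of neighbours in this order, the replicates of Maob and Tph1 overlapped at G14.5, as did those of Slc18a2 and Maoa, and at G0 those of Tph1 and Tph2. Receptor transcripts were at the bottom: Htr1d averaged 0.113 ± 0.109 CPM per kb at G14.5 and 0.145 ± 0.0426 at G0, Htr2b 0.0154 ± 0.0162 at G14.5 and 0.0652 ± 0.0491 at G0, and Htr3a had no read in either group.

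**Figure D1:**
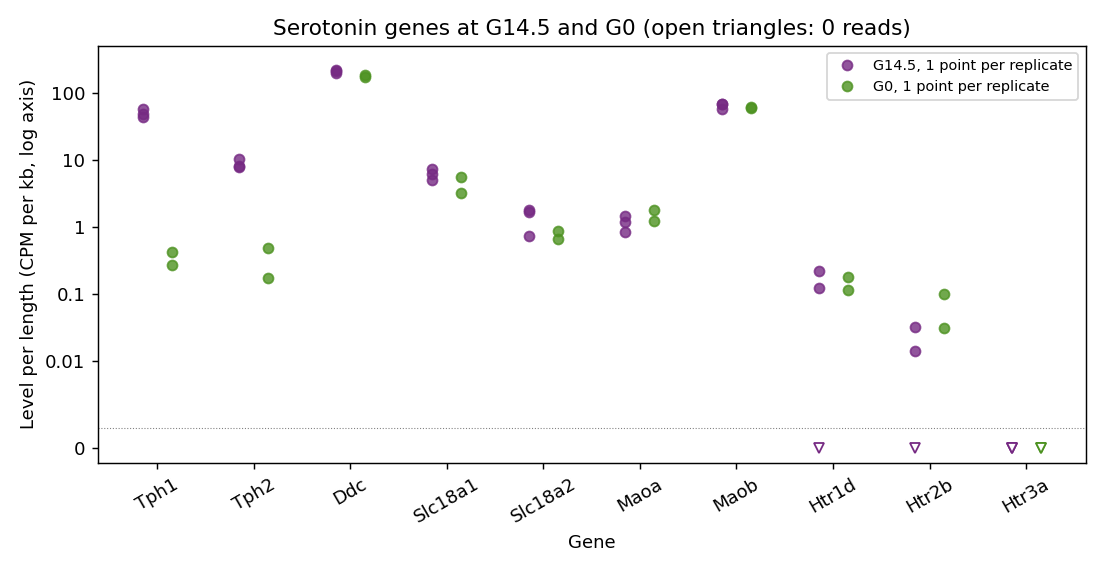
Level per length, in CPM per kb on a log axis, of the 10 genes in the 3 replicates of G14.5 and the 2 replicates of G0 of the time course; open triangles on the bottom line are libraries with 0 reads. Tph1 and Tph2 are the genes whose G14.5 and G0 points lie far apart, while Ddc and Maob are high in both groups.

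Tph1 lies at chr7:46644641-46672537 on the minus strand (GRCm38) and Tph2 at chr10:115078641-115185022, also on the minus strand. RefSeq (GRCm38.p6) gives Tph1 separate start sites, and their upstream windows of 250 bases are shown with that of Tph2 because these are the genes called through gestation. Capitals mark the matches found to CCAAT or TATAAA, on either strand. The outer Tph1 window, chr7:46672538-46672787, held no match to any of the 5 motifs searched. The inner one, chr7:46667378-46667627, held CCAAT on the other strand (ATTGG) from base -58 to -54 before the start, and the Tph2 window, chr10:115185023-115185272, held TATAAA from -30 to -25. All are written 5′ to 3′ on the strand of the gene.
Tph1 outer start: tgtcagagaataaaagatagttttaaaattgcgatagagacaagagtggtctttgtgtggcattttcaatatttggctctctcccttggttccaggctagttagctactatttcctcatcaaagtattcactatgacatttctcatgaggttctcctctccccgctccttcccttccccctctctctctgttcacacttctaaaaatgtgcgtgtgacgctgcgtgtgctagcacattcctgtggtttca
Tph1 inner start: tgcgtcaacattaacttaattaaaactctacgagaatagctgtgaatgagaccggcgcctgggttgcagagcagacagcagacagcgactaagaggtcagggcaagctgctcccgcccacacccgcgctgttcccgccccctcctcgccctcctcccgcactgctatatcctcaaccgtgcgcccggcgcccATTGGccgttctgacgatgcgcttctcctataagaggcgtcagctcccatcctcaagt
Tph2: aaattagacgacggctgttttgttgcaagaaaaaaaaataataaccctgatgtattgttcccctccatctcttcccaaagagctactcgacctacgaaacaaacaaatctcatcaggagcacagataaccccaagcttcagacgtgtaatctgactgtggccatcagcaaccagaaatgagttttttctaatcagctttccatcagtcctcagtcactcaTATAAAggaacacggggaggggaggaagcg
The inner Tph1 window had a GC content of 58.8% and 19 CG dinucleotides, against 43.6% and 5 in the outer window and 43.6% and 7 in the Tph2 window. The STAT letters TTCNNNGAA and the cAMP response element TGACGTCA were searched on both strands like the others. Neither occurred in these windows or in those of the other members with a window in the promoter set used here, 7 of the 10 in all. Among 32851 mouse promoter windows of the same length, 7.0% held TTCNNNGAA, 1.5% TGACGTCA, 12.4% TATAAA, 66.2% the E box letters CANNTG and 33.8% the letters CCAAT. The last of these was added to the search after the sequences had been seen.

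Tph1 and Tph2 were the members that changed through gestation. At G14.5 Tph1 had 88.4, 99.2 and 118.6 CPM, against 0.841 and 0.541 CPM at G0. All 3 gestational replicates stood far above both G0 replicates, with no overlap. The log2 fold change was 7.11 ± 0.81 (SE, edgeR's quasi-likelihood test, Benjamini-Hochberg adjusted p = 4.39e-07). Tph2 had 20.2, 20.9 and 26.6 CPM at G14.5, against 0.444 and 1.25 CPM at G0, a log2 fold change of 4.89 ± 0.63 (adjusted p = 3.48e-06). Of the 9 members that passed the filter on low counts, these 2 were called at an adjusted p under 0.05 at G14.5, where 10.1% of all genes tested were called. These calls are edgeR's after genes of low counts were removed. DESeq2 passed 19 further results on members and edgeR without that filter 39, many of which are given beside the statement they change. The cause was not tested. Standard errors given for edgeR are worked back from its test, as the absolute log2 fold change over the square root of the F statistic. Without the filter they could be far smaller. For Tph1 at P2NL over G0 this value was 0.2466 without the filter. DESeq2, whose standard error comes from its fit and is another measure, gave 0.7959. The P2NL replicates had 8.594 and 2.217 CPM. Very small adjusted p without the filter show how calls depend on the setting and are not read as stronger evidence. In sums over cells, fewer cells with a transcript and less of it per cell cannot be told apart, so cells are counted separately below.

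Both hydroxylases were called at G6.5 and not at G3.5 or G5.5, where Tph2 already lay above G0 and Tph1 overlapped it. At G3.5 Tph1 had 0.588 and 0.888 CPM and at G5.5 0.657 and 1.39 CPM, which overlaps G0. Tph2 had 1.70 and 2.38 CPM at G3.5 and 2.99 and 3.38 CPM at G5.5, above both G0 replicates but not called (log2 fold changes of 1.44 and 2.07, adjusted p = 0.346 and 0.084). Without the filter on low counts Tph2 was called at both (adjusted p = 0.00324 and 4.21e-07). At these stages 0.579 and 1.57% of all genes were called and no member was; 1 and 3 members had an unadjusted p under 0.05. At G6.5 Tph2 reached 9.98 and 13.8 CPM (log2 fold change 3.97, adjusted p = 0.000596) and Tph1 8.76 and 5.31 CPM (3.25 ± 0.78, adjusted p = 0.0243), with 1.65% of all genes called. The Tph1 call at G6.5 is lost without G0 replicate 1 (adjusted p = 0.124), without G0 replicate 2 (0.165) or without G6.5 replicate 1 (0.118).

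From G8.5 to G18.5 both genes stayed called at every stage. Tph1 had 30.7 and 29.03 CPM at G8.5, 22.7 and 20.0 at G10.5, 52.1 and 157.3 at G12.5, 84.5 and 141.9 at G16.5, and 54.2, 66.2 and 25.7 at G18.5. Tph2 had 15.6 and 12.4 CPM at G8.5, 14.01 and 13.7 at G10.5, 17.5 and 20.9 at G12.5, 15.2 and 23.7 at G16.5, and 14.7, 22.2 and 23.1 at G18.5. Tph2 thus reached most of its later level by G6.5, while Tph1 was highest from G12.5 to G16.5. The share of all genes called at these stages was 5.79% at G8.5, 2.76% at G10.5, 5.03% at G12.5, 7.25% at G16.5 and 4.77% at G18.5. Between G18.5 and G14.5 neither was called: the log2 fold change was -1.07 (adjusted p = 0.343) for Tph1, whose ranges did not overlap and which was called without the filter (adjusted p = 5.37e-09), and -0.18 for Tph2, with 0.176% of all genes called and no member.

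**Figure D2:**
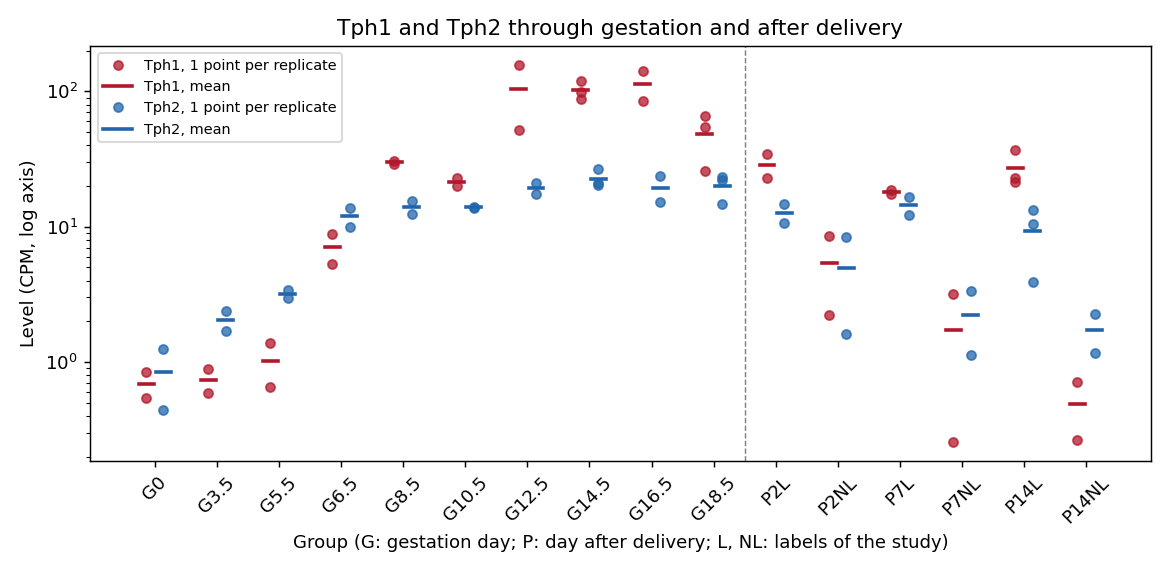
Level in CPM, on a log axis, of Tph1 and Tph2 in each replicate of the 16 groups of the time course, with a bar at the mean; the dashed line separates gestation from the days after delivery. In gestation Tph2 is above both G0 points from G3.5 on and Tph1 from G6.5 on, and after delivery the L groups lie above the NL group of the same day. The pair closest together is Tph2 at day 2, where the lowest L replicate has 10.7 CPM and the highest NL replicate 8.36 CPM.

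The balance of the hydroxylases shifted with stage. Per length, Tph1 was 5.61, 6.11 and 5.73 times the level of Tph2 in the G14.5 replicates and 7.15 and 7.70 times at G16.5. It was 0.282 and 0.528 times the level of Tph2 at G5.5 and 1.13 and 0.495 times at G6.5. At G0, where both rest on few reads (66 of Tph1 and 58 of Tph2), the ratio was 2.43 and 0.557. Late in gestation and in lactation it varied between replicates, with 4.73, 3.84 and 1.43 at G18.5 and 7.49, 4.53 and 2.08 at P14L.

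Counted by cell, Tph1 was detected in nearly all β cells at G14.5. At least 1 Tph1 read was found in 90.1, 92.045 and 95.4% of the cells of the G14.5 replicates, against 34.7% (25 of 72 cells) and 20.0% (7 of 35) at G0, with exact 95% intervals at G0 of 23.9 to 46.9% and 8.44 to 36.9% that cover counting error only. G14.5 and G0 shares did not overlap. When every cell was thinned to 200000 reads, the shares were 78.3, 80.7 and 88.8% at G14.5, against 13.9 and 8.57% at G0. With a minimum of 10 reads per cell, 63.6, 75 and 78.7% of G14.5 cells remained, and no G0 cell did, so the G0 reads came as a few per cell. Thinning left out 47 of 7897 cells that were shallower.

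Tph2 was found in fewer cells than Tph1 at the height of gestation. Its share was 69.4, 72.7 and 64.8% of cells at G14.5, against 11.1% (8 of 72) and 14.3% (5 of 35) at G0, and after thinning 57.5, 57.955 and 49.5% at G14.5, against 9.72 and 8.57% at G0. At G6.5 the order was turned round, with Tph2 in 33 of 61 and 39 of 80 cells and Tph1 in 29 of 61 and 28 of 80. Reads were not even over the positive cells: the tenth of cells with most reads held 48.04, 42.3 and 38.7% of all Tph1 reads at G14.5 and 42.6, 46.1 and 56.3% of the Tph2 reads, whereas for Ddc it held 22.6, 20.9 and 20.96%.

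Tph2 was detected in a larger share of the cells with a Tph1 read than of those without. At equal depth, the share was 61.7, 63.4 and 51.6% of the G14.5 cells with a Tph1 read and in 42.3, 35.3 and 33.3% of those without. Over the 51 libraries with at least 10 cells of each kind, the share was higher among the Tph1 cells in 42, with a median of 51.6%, against 40.0% in the other cells. For Slc18a1 it was higher in 31 of 51 and for Slc18a2 in 28 of 51. Thinning equalises the reads per cell but not the RNA content of the cells, whose part in this was not tested.

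**Figure D3:**
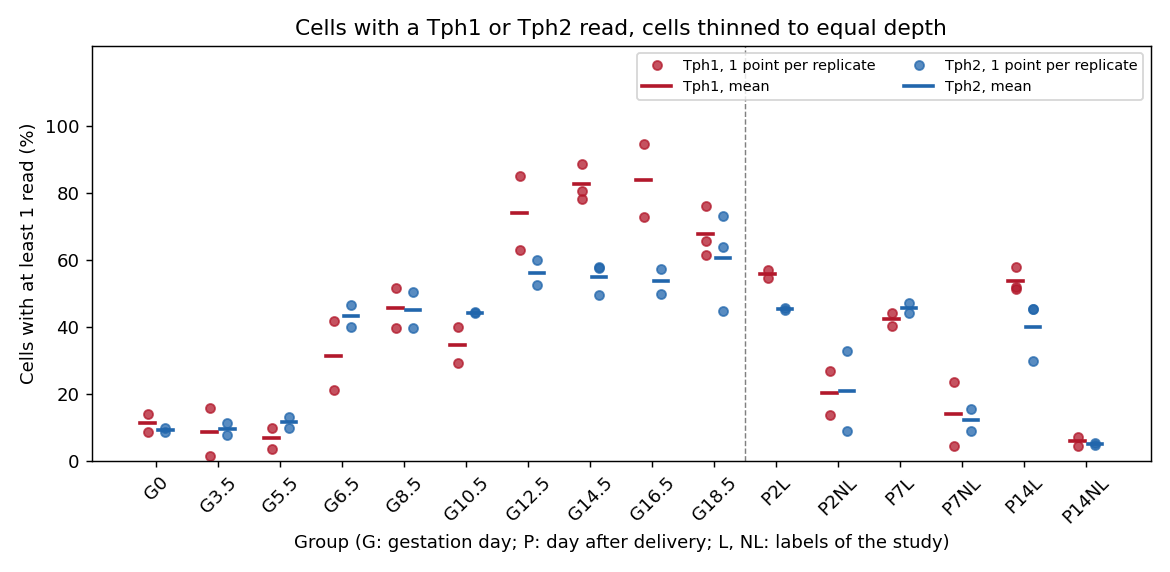
Percent of cells with at least 1 read of Tph1 or Tph2 in each replicate of the 16 groups of the time course, with each cell thinned to 200000 reads and a bar at the mean. Tph1 lies at 78.3 to 88.8% at G14.5 and at 8.57 to 13.9% at G0.

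After delivery, Tph1 and Tph2 were higher in the L groups than in the NL groups of the same day. Tph1 had 22.8 and 34.5 CPM at P2L, 17.5 and 18.6 CPM at P7L, and 22.9, 36.8 and 21.5 CPM at P14L. In the NL groups it had 8.59 and 2.22 CPM at P2NL, 0.256 and 3.20 CPM at P7NL, and 0.716 and 0.265 CPM at P14NL. No L replicate overlapped the NL replicates of its day. The difference of L over NL was called at day 14 (log2 fold change 5.81 ± 0.74, adjusted p = 1.26e-05, 0.722% of all genes called) and at day 7 (3.58 ± 0.69, adjusted p = 0.00375, 0.839% called), and not at day 2 (2.41, adjusted p = 0.172, 0.124% called; 5.62e-30 without the filter). Without P7NL replicate 1, which was low, the day 7 difference was 2.50 with an adjusted p of 0.115.

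Tph2 showed the same order of groups. It had 10.7 and 14.6 CPM at P2L, 16.6 and 12.2 CPM at P7L, and 3.93, 10.4 and 13.3 CPM at P14L. The NL groups had 8.36 and 1.60 CPM at P2NL, 1.13 and 3.33 CPM at P7NL, and 1.17 and 2.26 CPM at P14NL. L exceeded NL by a log2 fold change of 2.74 at day 7 (adjusted p = 0.00636) and 2.43 at day 14 (adjusted p = 0.0124), and at day 2 the difference of 1.35 was not called (adjusted p = 0.812, and 0.000473 without the filter). Several single libraries decide these calls: the day 7 call is lost without P7L replicate 1 (adjusted p = 0.055) or P7NL replicate 1 (0.228), and the day 14 call without P14L replicate 3 (0.0663) or P14NL replicate 1 (0.371).

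Set against G0, both hydroxylases were called higher in all 3 L groups (log2 fold changes of 4.62 to 5.28 for Tph1 and 3.61 to 4.24 for Tph2), where 2.61, 3.35 and 3.43% of all genes were called at days 2, 7 and 14. In the NL groups Tph2 at day 2 was the member called (2.71, adjusted p = 0.0278), a call lost without P2NL replicate 1 (1.07, adjusted p = 0.806), G0 replicate 1 (1.99, 0.26) or G0 replicate 2 (3.48, 0.0529) and with thinned cells (2.14, 0.0556). Without the filter it was also called at P7NL (adjusted p = 0.00134) and P14NL (0.0313). The NL groups had 0.572, 0.462 and 0.280% of all genes called against G0 at days 2, 7 and 14. Tph1 was at 2.87, 1.03 and -0.60 there (adjusted p = 0.083, 0.665 and 0.873), and the first and second were called without the filter (3.95e-28 and 0.00841). DESeq2 called the first as well (2.93, adjusted p = 0.02155). Against G18.5, P2NL was lower for Tph1 (-3.17 ± 0.61, adjusted p = 0.00294) and Tph2 (-2.01, adjusted p = 0.032), with 1.30% of all genes called. The first of these calls is lost without P2NL replicate 2 (-2.50, adjusted p = 0.188), and the second without P2NL replicate 2 (-1.26, 0.701), G18.5 replicate 2 (0.0743) or G18.5 replicate 3 (0.108), and with the replicate number as a block (-1.69, adjusted p = 0.095). Between P2L and G18.5 no member was called (0.0260% of all genes called, and Tph1 at -0.77, adjusted p = 0.943). Without the filter edgeR called Tph1 there (adjusted p = 0.00379).

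By cell, 57.9, 76.98 and 68.9% of P14L cells had a Tph1 read, against 10.8 and 17.1% of P14NL cells. P7L cells had 48.8 and 52.7%, against 13.5 and 39.1% at P7NL. In P7NL replicate 2, the higher of that pair, 1 cell of 64 carried 40.2% of the Tph1 reads and 1 cell 55.9% of the Tph2 reads.

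Ddc, the decarboxylase that follows the hydroxylases, was abundant at G0 already and was not called at any stage of the time course. It had 404, 422 and 441 CPM at G14.5, against 353 and 367 CPM at G0, and reads in every cell of both groups. The ranges did not overlap, and the log2 fold change of 0.23 was not called (adjusted p = 0.307). Ddc overlaps a gene on the opposite strand, 1700042O10Rik, as do Slc18a1, Slc18a2, Htr2b and Htr3a with other genes in GENCODE vM21, and no source used here says whether reads were counted by strand.

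The vesicular transporters were detected at lower levels. Slc18a1 (VMAT1) had 18.8, 15.3 and 22.8 CPM at G14.5, against 10.0 and 17.2 CPM at G0, which overlap (log2 fold change 0.49, adjusted p = 0.273). At G18.5 it had 27.5, 19.9 and 19.9 CPM, above both G0 replicates, and was not called (adjusted p = 0.121, and 0.0276 without the filter). Slc18a2 (VMAT2) had 6.21, 2.78 and 6.803 CPM at G14.5, against 2.51 and 3.25 CPM at G0 (0.88, adjusted p = 0.237), with 1 of the 3 replicates inside the G0 range. Over all 100 libraries, the median share of cells with a read was 71.4% for Slc18a1 and 27.2% for Slc18a2.

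Of the degrading enzymes, monoamine oxidase B was the transcript that β cells carried in quantity. Maob had 135.8, 166 and 164 CPM at G14.5, against 144.6 and 148.8 CPM at G0, which overlap. Maoa had 5.96, 3.45 and 4.93 CPM at G14.5, against 7.46 and 5.08 CPM at G0. In none of the stages of the time course was either called. In the median library, 100% of cells had a Maob read and 31.6% a Maoa read.

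Receptor transcripts were rare in every group of the time course. Htr1d, a receptor that couples to inhibitory G proteins, had 0.352, 0.633 and 0 CPM at G14.5, against 0.508 and 0.333 CPM at G0. At G18.5 it had 1.58, 0.991 and 2.25 CPM, above both G0 replicates (log2 fold change 1.92, not called, adjusted p = 0.726), and reads were in 7 of 96, 10 of 160 and 9 of 86 cells. Htr1d had no read at G5.5 or G6.5. With a floor of 3 reads over the group, this is at least 21.9-fold and 18.6-fold below the G0 mean of 0.421 CPM. That mean rests on 40 reads in 3 cells, with 72 and 35 cells in the G0 replicates. At 3 counts of the total, up to 1.81% of G5.5 cells and 2.13% of G6.5 cells could have a read. The fold bounds thus compare a few cells with none. The differences of G5.5 and G6.5 from G0 were not called, and without the filter they were (adjusted p = 0.0398 and 0.0489). Htr2b, which couples to Gq, had at most 1.09 CPM in any library and was found in 206 of 7897 cells. It lies inside Psmd1, which runs on the other strand. Htr3a, a ligand-gated channel, had 3 reads in 2 of 7897 cells and never passed the filter, so nothing can be said of its changes at this depth.

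The step at G14.5 recurred in the knockout and diet sets, whose libraries are different ones. Over 10 comparisons of G14.5 with G0 within a genotype and diet, counting the time course, Tph1 was called higher in 10 and Tph2 in 7, and the G14.5 replicates of both lay above the G0 replicates in all 10. Without the filter Tph2 was called in the other 3 as well, those on the high-fat diet (adjusted p = 7.20e-08, 1.93e-12 and 6.84e-16), and with thinned cells in those of the Acss2 genotypes on that diet (0.0144 in knockouts and 0.0162 in wild types). Ddc was above without overlap in 9 and called in 0 by edgeR, with log2 fold changes of 0.18 to 0.49; DESeq2 called it in Acss2 wild types (0.41, adjusted p = 0.0362). Slc18a1 had a positive fold change in 9 of 10 and was called in 1 by edgeR. DESeq2 also called it in Acss2 knockouts (0.86), Acss2 wild types (0.93), Stat3 wild types (0.81) and p300 knockouts (1.07), with adjusted p of 0.0135 to 0.0453, and edgeR without the filter in all of these but the Stat3 wild types. Maob had a positive fold change in 2, with its G14.5 replicates below those at G0 in 5. Slc18a2 and Maoa had positive fold changes in 6 and 7 of 10 and no call. These comparisons share no libraries with each other. The share of all genes whose replicates lie apart without overlap was not counted in any comparison. Statements of non-overlap, here and elsewhere, are therefore descriptions with no background beside them.

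**Figure D4:**
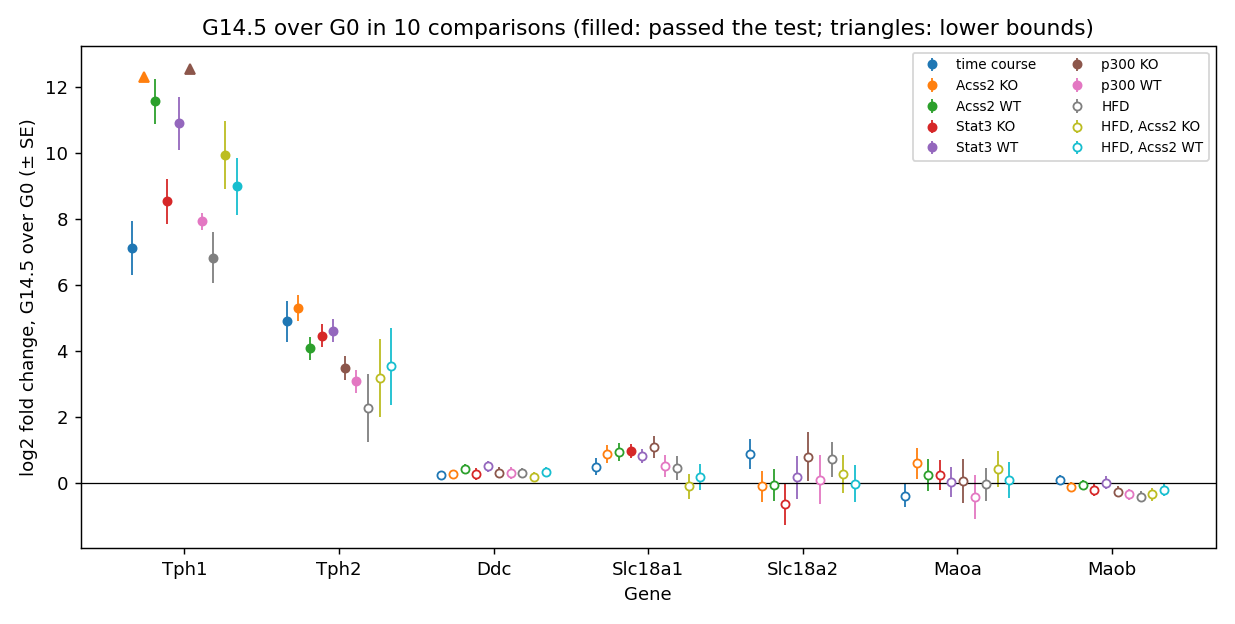
Log2 fold change of G14.5 over G0 for 7 members in 10 comparisons within a genotype and diet, with standard errors worked back from F. Filled points passed the test, and triangles are lower bounds where G0 had no reads. Tph1 is filled in all 10 and Tph2 in the 7 comparisons off the high-fat diet, and of the other members the one filled point is Slc18a1 in Stat3 knockouts.

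No member was called by edgeR between Acss2 knockouts and wild types at a given stage. At G14.5 Tph1 had 169 and 122.1 CPM in knockouts, against 201 and 157.4 CPM in wild types, which overlap (log2 fold change -0.30 ± 0.38, edgeR adjusted p = 0.826, 0.0213% of all genes called). At G18.5 it had 53.5 and 92.7 CPM in knockouts, against 168 and 66 CPM in wild types (-0.68 ± 0.38, adjusted p = 0.564, 0.149% called; adjusted p = 0.0127 without the filter). Tph2 had 20.3 and 18.97 CPM in G14.5 knockouts, against 23.2 and 19.4 CPM in wild types. At G0, where 0.00711% of all genes were called, Tph1 had no read in either knockout replicate, 0 of 163 cells, which at 3 counts of the total allows a share of cells with a read of up to 1.84%. The wild types there had 0 and 0.115 CPM. Tph2 at G0 had 0.793 and 0.218 CPM in knockouts, against 1.19 and 1.35 CPM in wild types, lower without overlap and not called (-1.35 ± 0.38, adjusted p = 1), while it was called without the filter (adjusted p = 0.0103) and without G0_Acss2KO replicate 1 (-2.53, adjusted p = 0.0382).

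Within Acss2 knockouts, Tph1 at G14.5 was at least 5000-fold higher than at G0 and at G18.5 at least 2510-fold higher, taking the floor of 3 reads over the group as the G0 level. In wild types, where G0 held 0 and 8 Tph1 reads in its replicates, the fitted log2 fold changes were 11.57 and 10.95 at G14.5 and G18.5, and leaving out 1 library gave 10.59 to 16.72 and 9.97 to 16.1. No interaction of genotype and stage was called for a member, with 0.0213% of all genes called for it at G14.5 and 0.0142% at G18.5. At G18.5 that of Tph2 was 1.66 (adjusted p = 0.381), called without the filter (0.0128) and without G0_Acss2KO replicate 1 (2.84, 0.0337). Called shares of all genes over G0 were 4.35 and 2.47% in knockouts and 2.92 and 6.89% in wild types at G14.5 and G18.5. Slc18a1 joined the hydroxylases at G18.5 in knockouts, with 20.0 and 37.9 CPM at G18.5, against 12.51 and 7.96 CPM at G0 (1.50 ± 0.28, adjusted p = 0.00638), a call lost without G0_Acss2KO replicate 2 (0.104) or G18.5_Acss2KO replicate 2 (0.0727).

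In the Stat3 set both hydroxylases were also called higher than at G0 in both genotypes. Tph1 had 198 and 95.4 CPM in G14.5 knockouts, against 240 and 281 CPM in wild types, lower without overlap but not called (-0.83 ± 0.46, adjusted p = 0.632, 0.00980% of all genes called; adjusted p = 0.00846 without the filter). At G18.5 it had 115.1 and 116.9 CPM in knockouts, against 129.4 and 63.02 CPM in wild types (0.27, adjusted p = 1, 0.0196% called), and at G0 0.697 and 0.0241 CPM in knockouts, against 0.203 and 0 CPM in wild types (0% called). By edgeR no member was called between the genotypes at any stage; at G18.5 1 member and at the other stages 0 had an unadjusted p under 0.05. Tph2 had 20.2 and 16.7 CPM in G14.5 knockouts, against 28.2 and 21.1 CPM in wild types, also without overlap. Its log2 fold change of G14.5 over G0 was 4.46 in knockouts and 4.61 in wild types, with 1.70 and 1.74% of all genes called, and the interaction of genotype and stage was -0.15 ± 0.47 (adjusted p = 0.972). No member was called for this interaction, nor for that at G18.5, with 0% and 0.0392% of all genes called at G14.5 and G18.5. Without the filter that of Tph1 at G14.5 was called (-2.35, adjusted p = 0.000427).

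Slc18a1 was called higher in 2 comparisons of the Stat3 set. It had 28.5 and 29.8 CPM in G14.5 knockouts, against 14.2 and 15.5 CPM in G0 knockouts (0.98, adjusted p = 0.0257), and 26.7 and 25.4 CPM in G18.5 wild types, against 13.5 and 13.8 CPM in G0 wild types (0.93, adjusted p = 0.0312, 2.06% of all genes called). The groups did not overlap in either. The knockout call is lost without any one library other than G0_Stat3KO replicate 2, the wild-type call without any one of its 4 libraries, and both with cells thinned to equal depth (adjusted p = 0.0957 and 0.0527). In G18.5 knockouts, against G0 knockouts, the hydroxylases were the members called (1.48% of all genes).

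In the p300 set, Tph1 was called between genotypes at G0 and not at G14.5. At G0 it had no read in either knockout replicate, against 0.558 and 0.705 CPM in wild types, so that knockouts were at least 28.6-fold lower (adjusted p = 0.000362, 1.54% of all genes called). None of 83 knockout cells had a read, which at 3 counts of the total allows a share of cells with a read of up to 3.61%. At G14.5 it had 126.6 and 138.5 CPM in knockouts, against 178 and 138.9 CPM in wild types, lower without overlap but not called (-0.26 ± 0.19, adjusted p = 0.699). There no gene was called and 1333 of 13475 had an unadjusted p under 0.05. Relative to G0, Tph1 at G14.5 was at least 6000-fold higher in knockouts (3.27% of all genes called), and in wild types its log2 fold change was 7.92 ± 0.27 (2.15% called). The interaction of genotype and stage was called for Tph1 and no other member (8.52 ± 0.86, adjusted p = 0.00618, 0.0668% of all genes called). As the G0 knockouts had no read, this value is no exact fold, and with thinned cells the call was lost (5.95, adjusted p = 0.122). Tph2 had 1.91 and 1.56 CPM in G0 knockouts, against 1.75 and 2.75 CPM in wild types, and 20.6 and 18.2 CPM in G14.5 knockouts, against 16.49 and 21.9 CPM in wild types, which overlap at both stages. The G0 difference of Tph1 is one between 67 reads, found in 18 cells over the 2 wild-type libraries, and none in the knockouts. In the Acss2 wild types at G0 the level was 0 and 0.115 CPM, below that of the p300 wild types, in libraries of another set.

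On the high-fat diet Tph1 was higher at G14.5 as well. HFD_G14.5 had 104.2, 106.2 and 109.2 CPM, against 0.752 and 1.11 CPM at HFD_G0 (6.82 ± 0.77, adjusted p = 0.000342, 1.95% of all genes called). HFD_P7NL had 2.82 and 0.578 CPM, a log2 fold change of -5.93 from HFD_G14.5 (adjusted p = 0.000232, 1.32% called) and of 0.90 from HFD_G0 (adjusted p = 0.940), where no gene was called and 759 of 14115 had an unadjusted p under 0.05. Without the filter edgeR called Tph1 between HFD_P7NL and HFD_G0 (0.91, adjusted p = 0.0407). Tph2 had 16.52, 15.9 and 18.7 CPM at HFD_G14.5, against 3.99 and 3.11 CPM at HFD_G0, with no overlap. It was not called with the filter (2.27 ± 1.04, adjusted p = 0.298), with G0 replicates elsewhere in this set far apart, at 0 and 4.06 CPM in HFD_G0_Acss2KO and 0.0741 and 3.29 CPM in HFD_G0_Acss2WT. At HFD_P7NL it had 1.90 and 1.96 CPM, below HFD_G14.5 and not called (-3.14, adjusted p = 0.196), though it was with thinned cells (-2.98, 0.0391) and without the filter (3.62e-14).

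Under the high-fat diet Tph1 was lower in Acss2 knockouts at G14.5 in both replicates, with 86.2 and 91.5 CPM, against 196 and 228 CPM in wild types. The groups did not overlap, and the difference was not called (-1.25 ± 0.59, adjusted p = 0.588, 0.0638% of all genes called; adjusted p = 4.88e-07 without the filter). Wild types on the standard diet in the same set had 132.2 and 142.4 CPM, below the high-fat wild types without a call (HFD over SD 0.63 ± 0.58, adjusted p = 0.703, 0.213% called). The HFD_G14.5 group of this set, which carries no Acss2 label, had 104.2 to 109.2 CPM. That lies above the knockouts and below the wild types of both diets, and these differences were not tested. Over G0, where it had 0 and 0.411 CPM in knockouts and 0 and 0.974 CPM in wild types, Tph1 was higher by a log2 fold change of 9.93 in knockouts (3.85% of all genes called) and 8.98 in wild types (1.93% called). Leaving out 1 library gave 7.75 to 15.68 in knockouts and 7.76 to 16.91 in wild types. No interaction of genotype and stage was called for a member (0.0142% of all genes called). Tph2 had 18.7 and 13.9 CPM in G14.5 knockouts, against 20.2 and 17.6 CPM in wild types. Over all 10 comparisons of knockout with wild type, the G0 difference of Tph1 in the p300 set was the one called for any member. Without the filter Tph1 was also called at G18.5 in the Acss2 set, at G14.5 in the Stat3 set and at G0 and G14.5 on the high-fat diet, and Tph2 at G0 in the Acss2 set.

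In cultured islets both hydroxylases had higher values in maternal than in normal serum, at levels below those of G14.5 in the time course, whose libraries were scaled separately. Tph2 in MS_NifCtrl did lie within the 15.91 to 18.7 CPM of HFD_G14.5. With vehicle, Tph1 had 12.8 and 5.48 CPM in MS_A485Ctrl, against 0.299 and 0.119 CPM in NS_A485Ctrl (5.57, edgeR adjusted p = 0.0364, 0.657% of all genes called). In the other set it had 10.6 and 8.33 CPM in MS_NifCtrl, against 1.94 and 1.69 CPM in NS_NifCtrl (2.38, adjusted p = 0.18, and 0.0108 by DESeq2). Groups did not overlap in either set. Tph2 had 7.71 and 16 CPM in MS_A485Ctrl, against 1.70 and 2.99 CPM in NS_A485Ctrl (2.32, adjusted p = 0.20, and 0.0188 by DESeq2), and 17.9 and 16.9 CPM in MS_NifCtrl, against 0.776 and 1.19 CPM in NS_NifCtrl (4.15, adjusted p = 0.00751, 1.02% called). So each hydroxylase was higher in both sets without overlap, and each was called in 1 by edgeR. The Tph1 call is lost without MS_A485Ctrl replicate 1 (0.171), NS_A485Ctrl replicate 1 (0.0734) or NS_A485Ctrl replicate 2 (0.115), and the Tph2 call without NS_NifCtrl replicate 1 (0.0996).

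With A485 or nifuroxazide the values of both hydroxylases lay below those of the vehicle in each serum without overlap, and edgeR called 1 of these 8 differences. DESeq2 called Tph1 in MS_A485 (adjusted p = 0.0294) and MS_Nif (0.00425) and Tph2 in NS_Nif (0.00936) as well, and edgeR without the filter also called the last of these (0.00379). Tph1 had 1.53 and 1.99 CPM in MS_A485, against 12.8 and 5.48 CPM in MS_A485Ctrl (-2.37, adjusted p = 0.148), and 1.73 and 1.44 CPM in MS_Nif, against 10.6 and 8.33 CPM in MS_NifCtrl (-2.58, adjusted p = 0.161). It had 0.0663 and 0 CPM in NS_A485, against 0.299 and 0.119 CPM in NS_A485Ctrl, and 1.10 and 0.622 CPM in NS_Nif, against 1.94 and 1.69 CPM in NS_NifCtrl. Tph2 had 3.59 and 7.01 CPM in MS_A485, against 7.71 and 16 CPM in MS_A485Ctrl, and 9.72 and 6.71 CPM in MS_Nif, against 17.9 and 16.9 CPM in MS_NifCtrl.

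In normal serum Tph2 had 0 and 0.0889 CPM in NS_A485, against 1.70 and 2.99 CPM in NS_A485Ctrl (-5.81, adjusted p = 0.0121, 2.57% of all genes called), the difference that was called. The call is lost without NS_A485 replicate 1 (-4.69, adjusted p = 0.0956). It had 0.210 and 0 CPM in NS_Nif, against 0.776 and 1.19 CPM in NS_NifCtrl (-3.22, adjusted p = 0.0783, 1.99% called). NS_A485 held 2 Tph2 reads, in 1 of 95 cells, and NS_Nif held 4, in 3 of 42 cells. Fold changes of Tph2 that involve these groups, here and below, are therefore no exact folds. Maternal serum still stood above normal serum with a compound present: Tph2 was higher in MS_A485 than in NS_A485 (6.96, adjusted p = 0.00928, 0.288% called) and in MS_Nif than in NS_Nif (6.28, adjusted p = 0.0037, 0.490% called). The first of these is lost without NS_A485 replicate 1 (5.84, adjusted p = 0.0731). By edgeR no interaction of serum and compound was called for any member (0.00738% of all genes called with A485 and 0% with nifuroxazide; 1 and 2 members had an unadjusted p under 0.05). DESeq2 called that with nifuroxazide for Maob (0.91, adjusted p = 0.00295) and Htr1d (-11.41, 0.0333). Without the filter edgeR called it for Maob (0.0290) and Htr1d (0.0125), and that with A485 for Tph2 (4.64, 0.0101).

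The compounds also moved β-cell markers, whose part in the lower hydroxylase values was not tested. With A485, 4 of 8 markers were called lower in each serum (Ins1, Ins2, Iapp and Slc2a2). With nifuroxazide 5 of 8 were called lower in normal serum (Ins1, Ins2, Slc2a2, G6pc2 and Slc30a8) and 1 of 8, G6pc2, in maternal serum. Leaving insulin reads out of the library sizes changed no call on a member.

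Maob fell with A485 in both sera. It had 105.5 and 107.5 CPM in MS_A485, against 188 and 151.2 CPM in MS_A485Ctrl (-0.67, adjusted p = 0.0456, 3.30% of all genes called), and 94.8 and 103.2 CPM in NS_A485, against 149.2 and 194 CPM in NS_A485Ctrl (-0.80, adjusted p = 0.0296). In the nifuroxazide set the NS vehicle was the high group: Maob had 152.6 and 154.2 CPM in MS_NifCtrl, against 255 and 263 CPM in NS_NifCtrl (-0.75, adjusted p = 0.0245), and 167 and 154.5 CPM in NS_Nif, against the same NS_NifCtrl values (-0.69, adjusted p = 0.0296). In maternal serum it had 190 and 176 CPM in MS_Nif, against 152.6 and 154.2 CPM in MS_NifCtrl, which was not called (0.697% of all genes called). Ddc lay below the vehicle without overlap in all 4 compound comparisons and was called in 1, with 352 and 315 CPM in NS_Nif, against 504 and 560 CPM in NS_NifCtrl (-0.67, adjusted p = 0.0264). NS_NifCtrl enters 3 of these comparisons. The Maob calls with A485 are lost without 3 of their 4 libraries each, and the Maob and Ddc calls of the nifuroxazide set without any 1 of theirs, with adjusted p up to 0.195.

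Slc18a1 was higher in maternal than in normal serum in all 4 matched pairs, without overlap and without a call by edgeR; without the filter MS_Nif over NS_Nif was called (1.17, adjusted p = 0.00759). It had 27.6 and 24.3 CPM in MS_A485, against 14.3 and 15.3 CPM in NS_A485, and 23.3 and 28.9 CPM in MS_A485Ctrl, against 14.8 and 15.3 CPM in NS_A485Ctrl. In the other set it had 49.01 and 28.1 CPM in MS_Nif, against 20.6 and 13.9 CPM in NS_Nif, and 30.7 and 35.3 CPM in MS_NifCtrl, against 15.4 and 25.97 CPM in NS_NifCtrl. MS_Nif replicate 1 held the highest Slc18a1 level of the 100 libraries. Ddc lay above without overlap in 3 of the 4 pairs and was not called by edgeR. Its means were 438.6 CPM in MS_A485Ctrl, against 317.8 CPM in NS_A485Ctrl, and 402.2 CPM in MS_A485, against 273.4 CPM in NS_A485. DESeq2 called both (adjusted p = 0.00366 and 0.000253) and edgeR without the filter the second (0.0160). In MS_NifCtrl the Ddc mean was 524.8 CPM, against 532.0 CPM in NS_NifCtrl.

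Htr1d, at lower levels in most other groups, was found in maternal serum with vehicle. Its values there overlapped the 0.991 to 2.245 CPM of G18.5 in the time course, whose libraries were scaled separately. Htr1d had 2.80 and 2.05 CPM in MS_A485Ctrl, against 0.200 and 0 CPM in NS_A485Ctrl. In the other set it had 4.73 and 1.40 CPM in MS_NifCtrl, against 0 and 0 CPM in NS_NifCtrl. Reads lay in 6 of 51 and 3 of 49 cells of MS_A485Ctrl and in 9 of 37 and 5 of 33 cells of MS_NifCtrl. With A485 in maternal serum there was no read in 96 cells, at least 81.1-fold lower than the vehicle mean, and with nifuroxazide it had 0.149 and 0 CPM. In normal serum it had 0 and 0.813 CPM in NS_Nif and no read in NS_A485. With the filter on low counts edgeR called none of these differences. Without it MS_NifCtrl over NS_NifCtrl (adjusted p = 0.00737) and MS_A485 over MS_A485Ctrl (0.00942) were called, and DESeq2 called the first (0.00647).

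**Figure D5:**
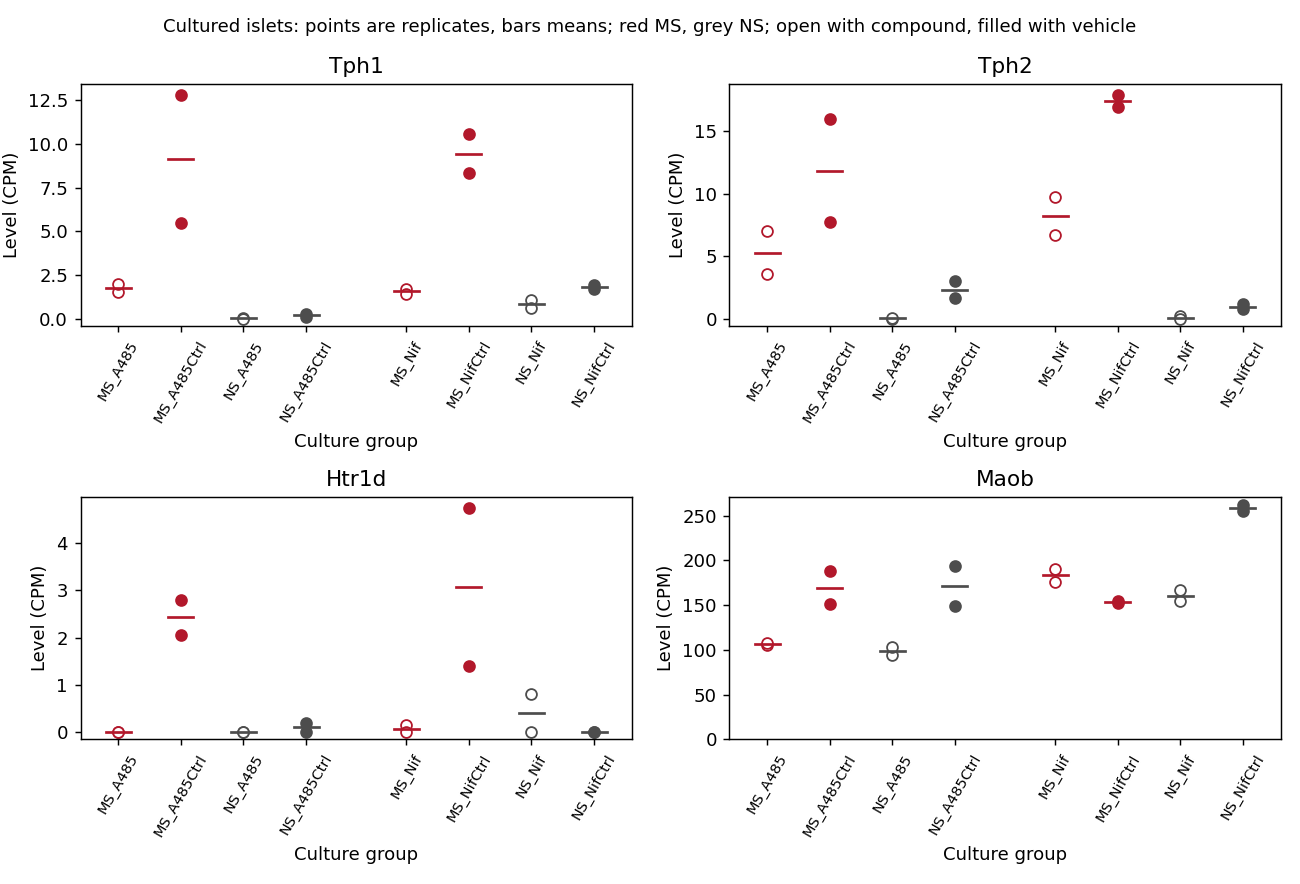
Level in CPM of Tph1, Tph2, Htr1d and Maob in each of the 2 replicates of the 8 culture groups, with a bar at the mean; red is maternal and grey normal serum, open points have a compound and filled points the vehicle. Tph1, Tph2 and Htr1d are highest in maternal serum with vehicle, and Maob is highest in NS_NifCtrl at 255 and 263 CPM.

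Around the 10 genes, 50 further genes of the serotonin route were counted in 8 lists, of which 36 were tested in the time course. At G14.5 against G0, 5 of the 36 were called higher and 2 lower, with a median log2 fold change of -0.0017, beside 10.1% of all genes called. The regulators of tryptophan hydroxylase, 14-3-3 proteins that bind the phosphorylated enzyme, had 4 of 6 members higher: Ywhae 0.43, Ywhah 0.57, Ywhaq 0.34 and Ywhaz 0.49 in log2 fold change (adjusted p = 0.007, 0.00437, 0.0441 and 0.00323). They bind many other proteins too, and none of these 4 was called at G14.5 over G0 in the knockout and diet sets. Akr1a1, an aldehyde reductase, was higher by 0.42 (adjusted p = 0.0096).

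Among the cofactor genes, Gch1, the first enzyme of tetrahydrobiopterin synthesis, was lower, at 92.2 ± 3.38 CPM at G14.5 (SD, n = 3) and 130 ± 2.83 CPM at G0 (SD, n = 2), a log2 fold change of -0.50 (adjusted p = 0.00163); 0 of the 8 cofactor genes were higher. Tetrahydrobiopterin is the cofactor of both hydroxylases. At G14.5 over G0 in the knockout and diet sets Gch1 was not called. Slc29a4, a low-affinity plasma membrane transporter of monoamines, had 9.94 ± 3.38 CPM at G14.5 (SD, n = 3) and 22.96 ± 13.2 CPM at G0 (SD, n = 2) and fell by 1.22 on the log2 scale (adjusted p = 0.00568). Its replicates overlapped, with up to 13.73 CPM at G14.5 and with 13.62 and 32.31 CPM at G0. It was also called lower, by 1 or more on the log2 scale, at G8.5 and G16.5 of the time course, at G14.5 in Acss2 knockouts (-1.22) and Acss2 wild types (-1.41), at G18.5 in Acss2 wild types (-2.16), at G14.5 in p300 knockouts (-1.50), and on the high-fat diet at G14.5 (-1.33) and at G14.5 in Acss2 knockouts (-2.09), each against the G0 group of its set. At HFD_P7NL it was higher than at HFD_G14.5 (1.23, adjusted p = 0.0257). Of the 11 other receptor genes, 1 passed the filter on low counts. No gene of the lists for serotonylation or for competing tryptophan breakdown was called there. In other comparisons the listed genes that were called with a change of 1 or more on the log2 scale were S100a10, a partner of serotonin receptors, with A485 in normal serum (-1.12) and in maternal serum (-1.03) and in G0 p300 knockouts against wild types (1.09), Aldh2 at G14.5 in Acss2 knockouts on the high-fat diet (-1.08), and Gchfr, a regulator of Gch1, at G14.5 in Acss2 knockouts, which had 0 and 0 reads at G14.5 and 90 and 52 reads at G0.

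The genes whose group means over the 16 groups of the time course ran most like those of Tph1 were Txnrd2, Cldn8, Fam69a, Aldh9a1 and Slc50a1, with Pearson correlations of log2(CPM + 1) of 0.961 to 0.947 among 8136 other genes. For Tph2 they were Gcsh, Car8, Slc6a8, Fmo1 and Cish, at 0.965 to 0.963. Cish is a well-known target of STAT5 signalling, and Slc6a8 a creatine transporter. For Htr1d the closest, Cdk2ap1, reached 0.803. The points share libraries and depth, and the values are descriptions.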

How the data were processed

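The authors deposited read counts per gene and cell in 7 tables, together with gene lengths. The submitters' processing notes name featureCounts 2.0.1 and Trimmomatic 0.39, with Cell Ranger 3.1.0, on GRCm38 (mm10). No source used here names the aligner, the gene annotation, the treatment of duplicate reads or the use of strand. The authors' normalized tables and 2 droplet libraries of whole islets were not analysed here. The Stat3 table as deposited ends after 12792 genes, the p300 table after 21177 and the others hold 21767.

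Cells were grouped by their labels, and each replicate's reads were added up over its cells. CPM were computed with library sizes scaled by edgeR's TMM factors. A model with a coefficient per group was fitted to each table with edgeR 4.0.16 (R 4.3.3; glmQLFit and glmQLFTest after filterByExpr), and p-values were adjusted by the Benjamini-Hochberg method over all genes tested in a comparison, with a call at an adjusted p under 0.05. There were 55 comparisons of 2 groups and 8 interactions, which gave 548 tests of a member, of which 66 were called: 30 for Tph1, 28 for Tph2, 4 for Maob, 3 for Slc18a1 and 1 for Ddc. No comparison had a median log2 fold change over all genes below -0.026 or above 0.029. Standard errors given for edgeR are the absolute log2 fold change over the square root of F, and those of DESeq2 come from its fit. Intervals on shares of cells are exact (Clopper-Pearson, 95%), and reads carry no molecule counts here, so intervals and floors cover counting error only. Where 0 cells had a read, the limit given is instead 3 counts of the cells. Cell depth ranged over medians of 329786 to 1824596 reads per library. The fit was tested on simulated counts.

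The members and gene lists were chosen with earlier results of these data known. Named genes are all 10 members, the called genes of the pathway lists with a log2 change of 1 or more (at G14.5 against G0 all called ones), the 5 genes most like Tph1, Tph2 and Htr1d among genes reaching a group mean of 10 CPM, and the targeted genes. Alternatives were DESeq2 1.42.0, no filter, no insulin reads, cells thinned to 200000 reads, cells of other hormones left out, the replicate number as a block, and single libraries left out.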

Additional observations from a re-analysis of the deposited data

Results flagged for a closer look

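The change of Tph1 between G14.5 and G0 differed between p300 knockouts and wild types. The interaction was 8.52 ± 0.86 on the log2 scale (edgeR's quasi-likelihood test, adjusted p = 0.00618), with 0.0668% of all genes called for this interaction. Its size depends on how 0 reads are treated, since both G0 knockout libraries had no Tph1 read, and with cells thinned to 200000 reads it was 5.95 and not called (adjusted p = 0.122). At G14.5 the knockouts had 126.6 and 138.5 CPM, against 178 and 138.9 CPM in wild types, lower without overlap but not called. The called difference between genotypes was at G0, with 0 and 0 CPM in knockouts and 0.558 and 0.705 CPM in wild types. No group held 4 or more libraries, so single libraries were not screened as outliers.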

How the results depend on the processing

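Of the 66 calls on members, DESeq2, no filter, counts without insulin reads and counts without cells of other hormones kept all 66; thinned cells kept 61, the replicate block 65, and no direction was reversed. Leaving out single libraries ended 19 of the 66 calls in at least 1 fit: 4 of Tph1, 7 of Tph2, 1 of Ddc, 3 of Slc18a1 and 4 of Maob. For Tph1 these fits gave 2.85 to 3.69 for G6.5 over G0, 4.81 to 6.22 for MS_A485Ctrl over NS_A485Ctrl, -4.46 to -2.50 for P2NL over G18.5 and 2.50 to 6.13 for P7L over P7NL; uncalled differences that gained a call were P2L over P2NL (1.74 to 3.69) and P2NL over G0 (1.59 to 3.55).

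With thinned cells Tph1 lost its call at G6.5 over G0 (3.00, adjusted p = 0.0502) and in the p300 interaction (5.95). DESeq2 added calls for Tph1 at P2NL over G0 (2.93), MS_A485 over MS_A485Ctrl (-2.38), MS_A485 over NS_A485 (5.55), MS_NifCtrl over NS_NifCtrl (2.39) and MS_Nif over MS_NifCtrl (-2.59), and gave no adjusted p for 33 of the 548 tests. Without the filter the added Tph1 calls were P2NL over G0 (2.87), P7NL over G0 (1.03), G18.5 over G14.5 (-1.06), P2L over P2NL (2.41), P2L over G18.5 (-0.77), G18.5 Acss2 knockout over wild type (-0.68), G14.5 Stat3 knockout over wild type (-0.82), the Stat3 interaction at G14.5 (-2.35), HFD_P7NL over HFD_G0 (0.91), HFD Acss2 knockout over wild type at G0 (-2.19) and at G14.5 (-1.26), and MS_A485 over NS_A485 (5.46). Over all members, DESeq2 added 19 calls (5 of Tph1, 2 of Tph2, 4 of Ddc, 4 of Slc18a1, 2 of Maob and 2 of Htr1d), no filter 39 (12, 14, 1, 6, 1 and 5 in the same order) and thinned cells 4, all of Tph2. The cause was not tested.

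The replicate numbers did not pair the libraries: deviations of same-numbered libraries correlated by a median of 0.001 in the time course (-0.254 to 0.21). With the replicate block the one call lost was Tph2 at P2NL over G18.5 (-1.69, adjusted p = 0.095), and no call was gained. The share of G14.5 cells with a Tph1 read, 92.5%, was 82.6% after thinning and 72.5% with a minimum of 10 reads; at G0, 27.4% became 11.2% and 0%. Per length, Tph1 over Tph2 at G14.5 was 5.82, and 5.77 with every cell weighted equally. With 2 libraries in most groups, and Htr1d and Htr2b at a few reads per library, depth limits what can be said of the receptors.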
